A study of Mus musculus with 12 samples.

Results

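Pancreatic stellate cells (PSCs), the vitamin A-storing fibroblasts of the mouse pancreas, were compared after 72 h of culture with pancreatic cancer cells (PCCs) and after 72 h alone. The members were taken from GEO's labels: the 4 libraries of PSCs from PCC–PSC co-culture (2W-PSCs) and the 4 libraries of PSCs from mono-culture (mono-PSCs), 8 of the 12 libraries of the series. Of 39179 genes in the table, 11199 passed the expression filter on these 8 libraries and were tested. The PSCs were mCherry-labelled cells of the SV40-immortalised line PSC C2, a single clone, with C57BL/6 given as the strain. The PCCs were EGFP-labelled cells of a mouse pancreatic cancer line with a doxycycline-inducible oncogene (*TetO-LSL*, driven by rtTA from *ROSA26* after *p48-Cre*) and *p53* fl/+. That line is routinely kept in doxycycline, and whether the co-cultures held any is not given in the sources used here. All cultures were grown in low-serum medium from 1 total cell number per flask, so a co-culture started with fewer PSCs. After culture the PSCs were sorted on mCherry, and EGFP-positive cells were gated out. The remaining 4 libraries, of PSCs cultured with PCCs and RAW264.7 macrophages (3W-PSCs), enter here as levels set beside the others.

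PSCs that meet cancer cells can turn into cancer-associated fibroblasts (CAFs). TGFβ is known to drive the myofibroblastic form, which holds α-smooth muscle actin in stress fibres and lays down collagen. IL-1 and NFκB signals are known to drive the inflammatory form, which secretes cytokines and chemokines. The comparison asks which of these programmes, and which other genes, differ in PSCs that shared a culture with PCCs.

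RNA was measured by 3′ end sequencing, in which reads come from near the poly(A) tail of a transcript, and the deposited values are whole read counts per gene. Library totals ran from 5286963 to 8093368 in mono-PSCs and from 4561817 to 6907711 in 2W-PSCs. Levels are given as CPM (counts divided by the library's total and set to a common scale) after TMM scaling over all 12 libraries. In a principal component analysis of the 8 libraries, 2W-PSC replicate 2 lay at 99.7 on the first component (45.1% of the variance) and the other 7 lay between -35.3 and 3.27. Spearman correlations of this library with its 3 fellow co-cultures were 0.843 to 0.913, and those 3 correlated with each other at 0.952 to 0.971. The counts of calls, and each result that library decides, are therefore also given without it. The design text calls the 4 libraries of a culture biological replicates. Markers of the labelled cell type were abundant, and the summed level of 28 stellate and fibroblast genes was 8362 to 10750 CPM in mono-PSCs and 9703 to 10930 CPM in 2W-PSCs. Summed levels of 30 epithelial genes, however, were 2.84 to 5.20 CPM in mono-PSCs and 86.5 to 160 CPM in 2W-PSCs, with no overlap. Macrophage genes summed to 9.66 to 10.8 CPM in mono-PSCs and 12.7 to 17.8 CPM in 2W-PSCs, also with no overlap. In the same order, endothelial genes summed to 8.78 to 19.8 CPM and 6.19 to 10.9 CPM. Acinar genes summed to 6.50 to 10.5 CPM and 6.21 to 19.1 CPM. In bulk RNA such as this, fewer cells of a type and less RNA per cell cannot be told apart.

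PSCs cultured with PCCs had more *Acta2*, *Tagln*, *Ltbp2*, *Ltbp3*, *Thbs2*, *Spp1*, *Mgp* and *Grem1* transcripts than PSCs alone. They had less *Sfrp2*, *Figf*, *Dpt* and *Rgs2*. Of the 11199 genes tested, 94 were called higher in 2W-PSCs (0.839% of the genes tested) and 17 were called lower (0.152%), 111 together (0.991%), at an adjusted p under 0.05 in edgeR's quasi-likelihood test. A change of more than 2-fold, in addition, was met by 102 genes (0.911%). The fitted log2 fold changes had a median of 0.02 over all genes tested. At an unadjusted p under 0.05, 552 genes were higher and 277 lower. The libraries of the 2 cultures did not overlap at 110 of the 111 called genes, 93 higher and 17 lower, whereas 5.73% of all genes tested showed no overlap. The exception was *Igfbp7*, described below. The calls were made on these same libraries, so the separation of called genes follows from the calling and adds no support to it. Without 2W-PSC replicate 2, 183 genes were called higher and 50 lower of 11481 tested (2.03% together), and these 233 held all 111 named here. Of the 94 genes called higher, 59 had a mean of at least 10 counts per library in mono-PSCs and 35 had fewer. Of those 35, 10 had no count in any mono-PSC library. When each of the 8 libraries was left out in turn, 49 of the 111 genes were called in all 8 fits and 45 in at most 4. Counts of calls in a gene list below come from the edgeR fit of the 8 libraries unless another fit is named. Over all genes, DESeq2 called 275 of 14143, limma voom 286 of 11199 and edgeR with the replicate number as a block 135 of 11199. These fits and the one without 2W-PSC replicate 2 call more genes in all, so their larger counts in a list are to be read against those totals.

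**Figure D1:**
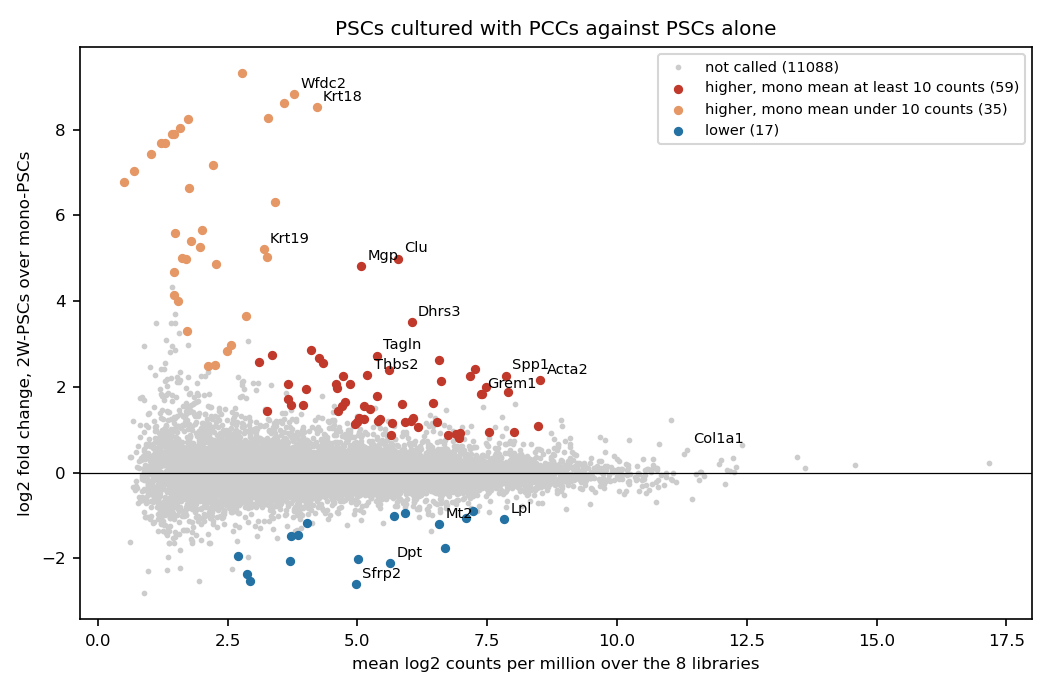
Each point is 1 of the 11199 genes tested, placed by its mean level over the 8 libraries (log2 CPM) and its log2 fold change, 2W-PSCs over mono-PSCs. Genes called higher are split by their mean count in mono-PSCs: the 35 with under 10 counts (orange) hold the largest fold changes at low levels, the other 59 (red) reach levels of *Acta2* and *Spp1*, and the 17 called lower are blue.

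Contractile genes were led by *Acta2* and *Tagln*. *Acta2* encodes α-smooth muscle actin, the filament protein that marks myofibroblasts, and lies at chr19:34241090-34255590 on the minus strand of GRCm38. Its levels were 159, 188, 91.8 and 119 CPM in the 4 mono-PSC libraries and 680.0, 662, 605 and 518 CPM in the 4 2W-PSC libraries. Every co-culture library lay at least at 518 CPM and no mono-culture library above 188 CPM. The log2 fold change (± SE, the standard error of the fit over 4 against 4 libraries, here and below) was 2.16 ± 0.25 (adjusted p = 0.000656), and 2.11 without 2W-PSC replicate 2. In 3W-PSCs the same gene was at 100.3, 86.5, 124 and 111 CPM. *Tagln* encodes transgelin, an actin-binding protein of smooth muscle, and lies at chr9:45929619-45936058 on the minus strand of GRCm38. It measured 10.7, 20.2, 9.05 and 6.17 CPM in mono-PSCs and 63.9, 129, 47.3 and 60.9 CPM in 2W-PSCs (log2 fold change 2.73 ± 0.40, adjusted p = 0.00504). Replicate 2 was the highest of the co-culture libraries, and the log2 fold change without it was 2.34 (adjusted p = 0.000445). Exons of *Pcsk7* and *Gm48529* on the other strand cover 67.9% of the exon bases of *Tagln*, and since the strand setting of the counting is not given, their reads cannot be told apart from its own. Of the 21 contractile genes tested, these 2 were called, 0 were called lower, 4 uncalled members lay below 0, and the median log2 fold change was 0.43. A further 7 were higher at an unadjusted p under 0.05, from 0.47 (*Tpm4*, a tropomyosin) to 1.53 (*Lmod1*, leiomodin). Cardiac troponin T, *Tnnt2*, which was outside that list, was also called: 7.37, 6.66, 1.06 and 6.65 CPM in mono-PSCs and 26.3, 65.7, 22.9 and 22.6 CPM in 2W-PSCs. It was called in 3 of the 8 fits that each leave out 1 library.

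Contractile genes are known targets of serum response factor, which binds the CArG box, a run of 6 A or T bases between CC and GG. The 250 bases before each RefSeq gene start (GRCm38.p6) were searched for it. The *Acta2* window (chr19:34255374-34255623, minus strand) has no box of 6 A or T bases. With 1 G or C allowed among the 6, a form searched after the sequence was seen, it has CCCTATATGG and CCTTGTTTGG, which start 84 and 34 bases before the RefSeq start. The GENCODE model, whose coordinates are given above, starts 217 bases farther upstream, so both matches lie in its first exon and the annotations differ on where the gene begins. At least 1 such match is held by 9.78% of the 27025 genes in the table and 2 or more by 0.759%. The *Dusp5* window is shown because 2 strict boxes, in capitals, stand side by side in it, and it was chosen after its sequence was seen. It is printed up to the GENCODE start, which lies 36 bases upstream of the RefSeq start.
*Dusp5* (chr19:53528895-53529108, plus strand): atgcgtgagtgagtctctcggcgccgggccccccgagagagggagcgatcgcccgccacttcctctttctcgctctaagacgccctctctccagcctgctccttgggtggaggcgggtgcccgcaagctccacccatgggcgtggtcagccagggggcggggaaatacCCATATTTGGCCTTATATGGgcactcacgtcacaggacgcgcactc
The 2 boxes start 82 and 72 bases before the RefSeq start. At least 1 strict box is held by 1.62% of all genes in the table, and 2 or more by 5 genes (0.0185%). Of 20 contractile genes with a window, 4 hold a strict box (*Cnn2*, *Myl6*, *Myl9* and *Vcl*), and none of those 4 was called by edgeR. The table has no entry for *Tagln*. The box reads alike on both strands, so 1 search covers them, and a match describes the letters only.

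*Ltbp2* and *Ltbp3* encode latent TGFβ binding proteins, which hold secreted TGFβ or microfibrils in the matrix. *Ltbp2* was at 1.58, 1.57, 1.06 and 1.09 CPM in mono-PSCs and 11.5, 16.4, 5.73 and 8.35 CPM in 2W-PSCs (log2 fold change 2.99 ± 0.45, adjusted p = 0.00601). *Ltbp3* was at 62.3, 45.04, 55.6 and 68.2 CPM and 125, 130.0, 132 and 130.2 CPM (log2 fold change 1.17 ± 0.19, adjusted p = 0.00795). Of 19 TGFβ ligands, receptors and binding proteins tested, edgeR called these 2, with a median of 0.42. DESeq2 called 4 higher among the 25 genes of this list with any count, and limma voom called 4 of 19. EdgeR without 2W-PSC replicate 2 called 5 of 22, with *Tgfb3*, *Ltbp1* and *Fst* added. Among the ligands, *Tgfb2* had a log2 fold change of 0.58 (adjusted p = 0.561) and *Tgfb3* of 1.24 (adjusted p = 0.486). The receptor *Tgfbr2* had -0.94 (unadjusted p = 0.044).

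Of 20 TGFβ response genes, *Skil* and *Pmepa1* were called, both of them inhibitors that TGFβ itself induces. *Skil*, a repressor of SMAD transcription, was at 28.3, 19, 26.6 and 29.3 CPM in mono-PSCs and 61.5, 56.7, 68.1 and 59.1 CPM in 2W-PSCs (log2 fold change 1.26 ± 0.20, adjusted p = 0.00834). *Pmepa1*, a membrane protein that holds back SMAD activation, was at 101, 83.04, 44.6 and 70.05 CPM and 274, 456, 176 and 270.0 CPM (log2 fold change 2.00 ± 0.32, adjusted p = 0.00776). For both, the lowest co-culture library lay above the highest mono-culture library, and the calls stood in all 8 fits that leave out 1 library. The list's median was 0.51, with 19 of 20 members above 0.

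BMP signals act through other SMADs, with the ID genes as direct targets and *Grem1* as a secreted antagonist. *Grem1*, which encodes gremlin, was at 78.1, 74.2, 80.8 and 67.5 CPM in mono-PSCs and 264, 319, 210.3 and 267 CPM in 2W-PSCs. The groups lay apart, at a log2 fold change of 1.83 ± 0.19 (adjusted p = 0.000382), and in 3W-PSCs the level was 602, 676, 474 and 486 CPM. *Id1*, an inhibitor of bHLH factors, was at 38.3, 27.6, 28.1 and 22.8 CPM and 85.7, 43.2, 132 and 90.4 CPM, replicate 2 being the lowest co-culture library (log2 fold change 1.61 ± 0.30, adjusted p = 0.0247, and 1.82 with adjusted p = 0.000181 without that library). *Id2* was at 182, 316, 270.0 and 172 CPM and 428, 564, 519 and 476 CPM (log2 fold change 1.10 ± 0.23, adjusted p = 0.0493). *Id1* and *Id2* were each called in 2 of the 8 fits that leave out 1 library. *Id3* was called by edgeR without 2W-PSC replicate 2 but not with it (adjusted p = 0.00406 and 0.454). Limma voom called *Id3* with all 8 libraries. Its levels were 194, 94.4, 148 and 90.7 CPM in mono-PSCs and 381, 43.4, 867 and 287 CPM in 2W-PSCs. Of 12 BMP and ID genes tested 3 were called, all higher, with a median of 0.49. Without 2W-PSC replicate 2, 4 of 13 tested were called higher and 2 lower.

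Matrix calls were found among matricellular proteins, small proteoglycans and their enzymes, and no collagen chain was called in the edgeR fit. *Thbs2*, the antiangiogenic thrombospondin 2, was at 11.8, 13.3, 9.23 and 17.4 CPM in mono-PSCs and 52.4, 81.4, 55.2 and 59.2 CPM in 2W-PSCs (log2 fold change 2.27 ± 0.25, adjusted p = 0.000577). *Spp1*, which encodes osteopontin, was at 72.7, 46.6, 124 and 84.8 CPM and 348, 222, 595 and 395 CPM (log2 fold change 2.26 ± 0.34, adjusted p = 0.00601), and at 1089, 1100, 959.7 and 840.5 CPM in 3W-PSCs. *Mgp*, matrix Gla protein, a calcification inhibitor that binds BMPs, was at 3.51, 3.52, 0.888 and 1.45 CPM and 79.5, 17.4, 80.6 and 80.8 CPM. Its 3 close co-culture libraries and the low replicate 2 all lay above mono-culture (log2 fold change 4.82 ± 0.54, adjusted p = 0.000622). These 3 were the calls among 30 matricellular and glycoprotein genes, whose median was 0.55. With the replicate number as a block 6 were called, all higher, and without 2W-PSC replicate 2, 7 were higher and 1 lower. Thrombospondin 1, *Thbs1*, had a log2 fold change of 0.55 ± 0.27 and versican, *Vcan*, of 1.21 ± 0.29, with adjusted p of 0.724 and 0.0867. Fibronectin, *Fn1*, was at 394, 202, 239 and 434 CPM and 702, 561, 656 and 771 CPM, without overlap, but at an adjusted p of 0.0782, and 0.0148 without replicate 2. With all 8 libraries, DESeq2 and limma voom each called *Vcan* and *Fn1* higher, and edgeR with the replicate block called *Fn1* higher.

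Among 8 small leucine-rich proteoglycans, which bind collagen fibrils and growth factors, *Aspn* and *Dcn* were called. Asporin, *Aspn*, was at 11.2, 9.99, 6.92 and 9.56 CPM in mono-PSCs and 49.4, 45.1, 46.3 and 36.1 CPM in 2W-PSCs (log2 fold change 2.24 ± 0.24, adjusted p = 0.000382). In 3W-PSCs it was at 0.664, 0.347, 1.15 and 0.5196 CPM, below both. Decorin, *Dcn*, was at 133, 157, 123 and 103 CPM and 272, 226, 235 and 258 CPM (log2 fold change 0.95 ± 0.19, adjusted p = 0.0329) and was called in 1 of the 8 fits that leave out 1 library. *Has2*, which makes hyaluronan, was at 2.46, 0.783, 1.06 and 1.09 CPM and 10.8, 13.7, 8.598 and 5.46 CPM (log2 fold change 2.84 ± 0.49, adjusted p = 0.0121). *Sulf1*, a sulphatase that trims heparan sulphate, had a log2 fold change of 1.57 ± 0.28 (adjusted p = 0.016). *Mmp3*, stromelysin 1, was at 0 to 0.588 CPM in mono-PSCs and 3.66, 6.13, 5.57 and 8.35 CPM in 2W-PSCs (adjusted p = 0.00883) and was edgeR's call among 23 matrix proteases and inhibitors. DESeq2 called 3 among the 32 genes of that list with any count, and limma voom called 2 of 23. EdgeR with the replicate block called 2 of 23, and edgeR without 2W-PSC replicate 2 called 2 of 24. All these calls were higher. The integrin subunit *Itgb5*, which pairs with αv in a receptor for vitronectin, had a log2 fold change of 0.93 ± 0.18 (adjusted p = 0.0298), and it was the 1 call of edgeR among 11 integrin genes. DESeq2 and limma voom each called *Itga6* and *Itgb3* too, and edgeR without 2W-PSC replicate 2 called *Itga6*. *Itgb5* was called in 1 of the 8 fits that leave out 1 library.

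Of 21 collagen genes tested, 19 had a positive log2 fold change, 12 were higher at an unadjusted p under 0.05 and 0 were lower, with a median of 0.61, and 0 passed the adjusted threshold. DESeq2, whose fit held 37 collagen genes with any count, called *Col4a1*, *Col6a2* and *Col8a1* higher. Limma voom called *Col4a1* and *Col8a1*, and edgeR without 2W-PSC replicate 2 called *Col8a1*. *Col8a1*, a short-chain network collagen, came closest: 276, 258, 355 and 322 CPM in mono-PSCs and 468, 713, 542 and 554 CPM in 2W-PSCs (log2 fold change 0.93 ± 0.21, adjusted p = 0.0587, and 0.0282 without replicate 2). The main fibrillar chain *Col1a1* was at 2631, 1584, 1806 and 2632 CPM and 2900, 3772, 2690 and 3066 CPM (log2 fold change 0.54 ± 0.24, adjusted p = 0.629). *Col6a1* had a log2 fold change of 0.61 ± 0.22 and *Col11a1* of 0.73 ± 0.30, neither past the threshold. *Col4a5* and *Col4a6* had 0.01 ± 0.22 and 0.21 ± 0.40. Of 22 collagen processing genes 0 were called by edgeR, DESeq2 or limma voom, with 4 higher and 0 lower at an unadjusted p under 0.05 and a median of 0.22, and edgeR called 1 without 2W-PSC replicate 2.

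**Figure D2:**
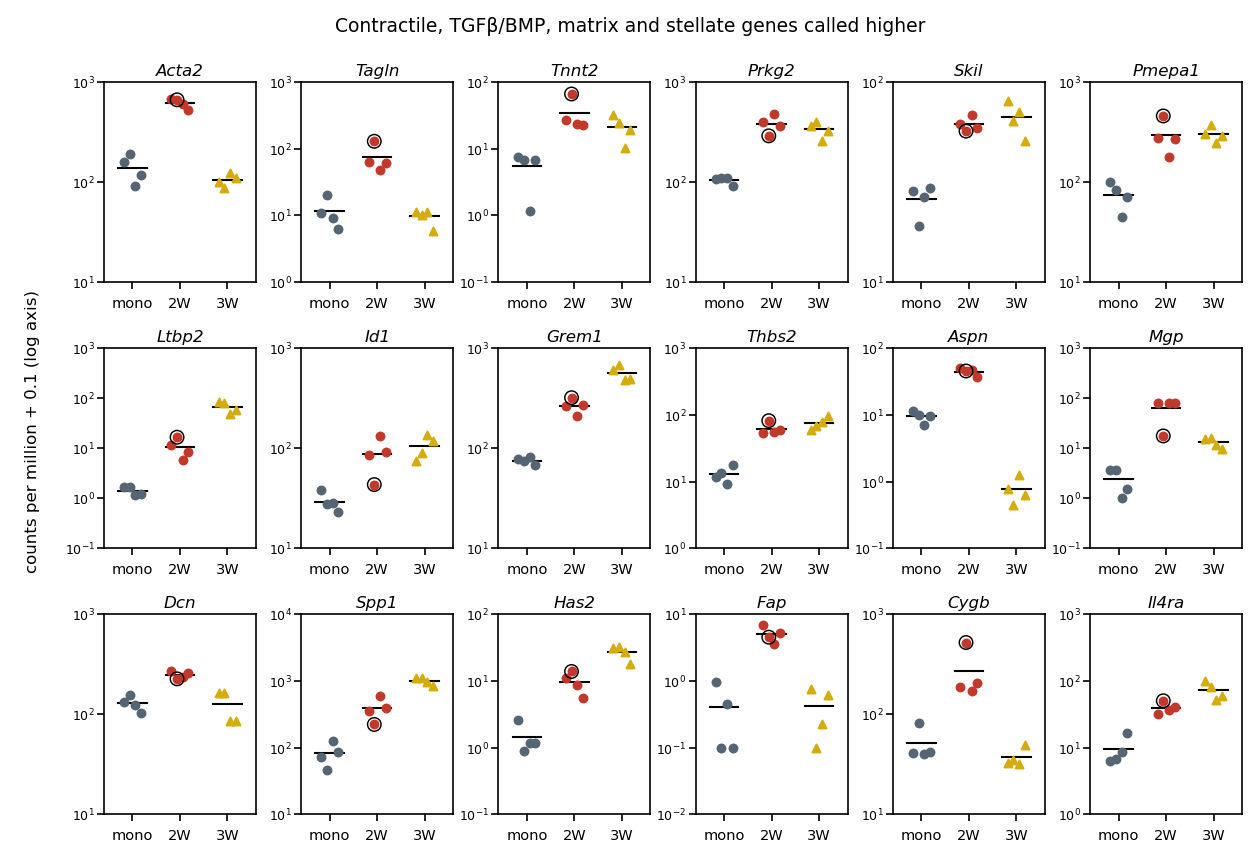
Levels (CPM + 0.1, log axis) of 18 contractile, TGFβ/BMP, matrix and stellate genes called higher, 1 point per library, with black bars for group means and a ring around 2W-PSC replicate 2. In each panel the 2W-PSCs (red) lie above the mono-PSCs (grey). 3W-PSCs (gold triangles) lie near mono-PSCs for *Acta2*, *Tagln* and *Cygb* and above 2W-PSCs for *Ltbp2*, *Grem1* and *Spp1*.

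Stellate and fibroblast markers held 2 calls among 20 tested, with a median of 0.54. Cytoglobin, *Cygb*, an oxygen-binding globin known as a stellate cell marker, was at 41.2, 81.1, 40.3 and 42.4 CPM in mono-PSCs and 189, 521, 169 and 205 CPM in 2W-PSCs. Replicate 2 of both cultures was the highest, and without 2W-PSC replicate 2 the log2 fold change went from 2.42 ± 0.39 to 1.88 with a smaller adjusted p (0.00834 and 0.000227). *Fap*, a surface protease that marks CAFs, was low: 0.878, 0, 0.355 and 0 CPM in mono-PSCs and 6.76, 4.42, 3.503 and 5.14 CPM in 2W-PSCs (adjusted p = 0.039, and 0.0519 with the replicate block). *Fap* was called in 2 of the 8 fits that leave out 1 library. *Vim* had a log2 fold change of -0.15 ± 0.23, and *Pdgfra* of 1.09 (adjusted p = 0.14). *Cdh11*, a mesenchymal cadherin, was at 21.4, 16.6, 13.7 and 11.6 CPM and 89.7, 71.1, 95.7 and 73.4 CPM (log2 fold change 2.40 ± 0.24, adjusted p = 0.000265). *Nrep*, a protein found in migrating and wound fibroblasts, was at 33.4, 48.2, 31.4 and 36.7 CPM and 162, 202, 137 and 150.4 CPM (log2 fold change 2.14 ± 0.21, adjusted p = 0.000274). Of genes that handle retinoids, *Dhrs3*, which reduces retinaldehyde back to retinol, was at 10.2, 15.5, 10.7 and 8.23 CPM and 106, 156, 122 and 116 CPM (log2 fold change 3.51 ± 0.25, adjusted p = 1.12e-05). *Rbp4*, the retinol carrier, was at no more than 0.702 CPM in mono-PSCs and 5.35, 3.68, 8.76 and 10.3 CPM in 2W-PSCs (adjusted p = 0.0115).

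Growth factor receptors, their feedback genes and lineage factors formed a further group. *Egfr*, the receptor of EGF family ligands, was at 10.01, 4.7, 3.91 and 7.38 CPM in mono-PSCs and 21.7, 17.2, 17.7 and 21.2 CPM in 2W-PSCs (log2 fold change 1.59 ± 0.32, adjusted p = 0.0385). *Etv4*, an ETS factor that ERK signals switch on, was at 6.14, 4.31, 7.28 and 9.07 CPM and 31.2, 30.4, 15.3 and 26.2 CPM (log2 fold change 1.94 ± 0.32, adjusted p = 0.00951). *Dusp5*, a nuclear phosphatase of ERK whose upstream sequence is shown above, was at 11.4, 4.11, 8.699 and 6.41 CPM and 26.3, 18.1, 27.9 and 18.9 CPM (log2 fold change 1.59 ± 0.33, adjusted p = 0.0419). These were the 3 calls among 19 receptor and feedback genes, whose median was 0.72. *Egfr* and *Dusp5* were each called in 2 of the 8 fits that leave out 1 library, and *Etv4* in 7. The neurotrophin *Bdnf* was at 97.4, 80.5, 103 and 86.9 CPM and 164, 159.9, 158 and 156 CPM, a small change with little spread (log2 fold change 0.81 ± 0.17, adjusted p = 0.0467), called in 1 of those 8 fits.

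*Igfbp7*, a secreted binding protein of insulin-like growth factors, was at 77.1, 38.4, 49.5 and 36.2 CPM in mono-PSCs and 328, 54.5, 367 and 198 CPM in 2W-PSCs. Replicate 2 lay inside the mono-culture range, which makes it the called gene with overlap (log2 fold change 2.25 ± 0.47, adjusted p = 0.0422, and 2.57 with adjusted p = 5.2e-05 without that library). It was called in 1 of the 8 fits that leave out 1 library, namely that one. In 3W-PSCs its levels were 699, 660.1, 462 and 567 CPM.

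Among 16 Wnt genes, 2 were called higher and 1 lower. The ligand *Wnt7b* had no count in mono-PSCs and 2.96, 5.89, 2.87 and 5.298 CPM in 2W-PSCs, at least 33.4-fold higher against a floor of 3 counts over the group. The part of epithelial RNA in the level of *Wnt7b* was not tested. *Lef1*, a nuclear partner of β-catenin, was at 0.351, 0.196, 0.7101 and 2.66 CPM and 13.7, 25.5, 4.62 and 10.8 CPM (log2 fold change 3.66 ± 0.71, adjusted p = 0.0272). *Lef1* was called in 3 of the 8 fits that leave out 1 library. *Sfrp2*, a secreted Wnt modulator, was lower and is given below. The list's median was 0.08.

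Transcription and chromatin factors called higher were *Hmga2*, *Foxs1*, *Foxc2*, *Onecut2*, *Irx3* and *Mbd1*. *Hmga2*, an architectural protein of growing mesenchyme, was at 84.96, 98.1, 55.2 and 69.1 CPM in mono-PSCs and 298, 305, 226 and 247 CPM in 2W-PSCs (log2 fold change 1.82 ± 0.22, adjusted p = 0.00107), and at 914, 984, 572 and 636 CPM in 3W-PSCs. *Foxs1*, a forkhead factor of pericytes, was at no more than 0.783 CPM and at 6.62, 12.8, 8.92 and 8.67 CPM (adjusted p = 0.00318). *Onecut2* was at 2.11, 2.15, 2.31 and 3.75 CPM and 17.5, 10.8, 14.5 and 26.6 CPM (adjusted p = 0.00277), with *Foxc2* (adjusted p = 0.0385), *Irx3* (0.0316) and *Mbd1* (0.036) nearer the threshold. With the replicate number as a block, *Foxc2* and *Irx3* were at 0.0535 and 0.0535. Of the 8 fits that leave out 1 library, *Irx3* and *Mbd1* were each called in 2 and *Foxc2* in 1.

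Genes of kinase and G protein signalling were also called. *Camk2n1*, an inhibitor of CaMKII, was at 31.8, 17.04, 30.7 and 29.4 CPM in mono-PSCs and 178, 167, 136 and 186 CPM in 2W-PSCs (log2 fold change 2.63 ± 0.23, adjusted p = 0.000102). *Prkg2*, a cGMP-dependent protein kinase, was at 107, 111, 109.9 and 92.1 CPM and 394, 289, 479.6 and 359.8 CPM (log2 fold change 1.87 ± 0.21, adjusted p = 0.000549). The pseudokinase *Trib2* was at 10.5, 15.3, 12.1 and 7.99 CPM and 46.5, 64.3, 42.8 and 36.6 CPM (log2 fold change 2.07 ± 0.27, adjusted p = 0.00215). In these genes every co-culture library lay above every mono-culture library. *Rgs17*, which switches off G proteins, was called at an adjusted p of 0.0497, the highest among these, and the mechanically gated channel *Piezo2* at 7.899, 3.52, 1.42 and 4.11 CPM and 39, 49.3, 15.6 and 19.1 CPM (log2 fold change 2.86 ± 0.50, adjusted p = 0.0133). The GABA receptor subunit *Gabra3* was at no more than 0.726 CPM and at 3.66, 6.62, 3.66 and 8.67 CPM. Of the 8 fits that leave out 1 library, *Piezo2* was called in 5, *Gabra3* in 3 and *Rgs17* in 1.

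The 17 genes called lower in 2W-PSCs included secreted and signalling proteins. *Sfrp2* was at 72.7, 60.1, 36.2 and 43.7 CPM in mono-PSCs and 9.996, 4.91, 11.5 and 7.71 CPM in 2W-PSCs (log2 fold change -2.61 ± 0.31, adjusted p = 0.00101). *Figf*, which encodes VEGF-D, a ligand of lymphatic vessel growth, was at 154, 177, 149 and 159 CPM and 48.7, 27.7, 59.2 and 52.02 CPM (log2 fold change -1.75 ± 0.23, adjusted p = 0.0022). *Dpt*, dermatopontin, a collagen-binding matrix protein, was at 72.3, 90.5, 82.2 and 79.01 CPM and 11.8, 10.6, 19.7 and 31.5 CPM (log2 fold change -2.12 ± 0.31, adjusted p = 0.00512). *Rgs2*, which turns off Gq signals, had nearly the same level in every mono-culture library, 49.3, 53.3, 52.7 and 51.5 CPM, and 12.8, 9.08, 20.5 and 8.19 CPM in 2W-PSCs (log2 fold change -2.01 ± 0.29, adjusted p = 0.00415). These 4 genes kept their call in all 8 fits that leave out 1 library, and in 3W-PSCs each lay below the mono-PSC range. The phosphodiesterase *Gdpd2* was at 12.6, 16.4, 8.34 and 10.4 CPM and 1.27, 2.698, 2.07 and 3.21 CPM and was called in all 8 such fits as well.

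Metabolic and stress genes were among the lower calls. *Lpl*, the lipoprotein lipase that takes up fatty acids, was at 295, 289, 331 and 327 CPM in mono-PSCs and 139, 92.97, 188 and 161 CPM in 2W-PSCs (log2 fold change -1.08 ± 0.22, adjusted p = 0.0398). *Mt2*, a zinc-binding metallothionein, was at 133, 185, 111 and 108 CPM and 56.9, 42.7, 68.9 and 61.8 CPM (log2 fold change -1.21 ± 0.23, adjusted p = 0.0257), and at 596, 707, 339.7 and 346 CPM in 3W-PSCs. Exons of *Gm45774* on the other strand cover 73.5% of the exon bases of *Mt2*. *Gstm1*, a glutathione transferase, had a log2 fold change of -0.89 ± 0.19 (adjusted p = 0.0462). *Mt2* and *Gstm1* were the 2 calls among 21 antioxidant genes, whose median was -0.23. *Ndrg1*, a hypoxia-induced gene, was at 192, 165, 208 and 174 CPM and 109, 81.9, 82.8 and 76.6 CPM (log2 fold change -1.06 ± 0.19, adjusted p = 0.0151), the call among 26 glycolysis and hypoxia genes with a median of -0.02. The remaining lower genes were the serpins *Serpinb9b* (-2.05 ± 0.39) and *Serpinb1a* (-1.45 ± 0.31), the GDNF family receptor *Gfra2* (-2.52 ± 0.44), the neuropeptide Y receptor *Npy1r* (-0.95 ± 0.19), the calcium pump *Atp2a3* (-1.95 ± 0.41), *Capn6* (-1.48 ± 0.30), the surface antigen *Ly6a*, also known as Sca-1 (-1.02 ± 0.21), and the phosphatase *Ppef1* (-1.18 ± 0.25), all as log2 fold changes ± SE. Their adjusted p ran from 0.0133 (*Gfra2*) to 0.0475 (*Ppef1*), and *Atp2a3* was at 0.0535 with the replicate block. Of the 8 fits that leave out 1 library, *Gfra2* was called in 6, *Ndrg1* in 5, *Serpinb9b* in 4, *Mt2* in 3, and *Lpl*, *Gstm1*, *Serpinb1a*, *Capn6* and *Ly6a* in 2 each. *Npy1r*, *Atp2a3* and *Ppef1* were called in 1 of them.

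**Figure D3:**
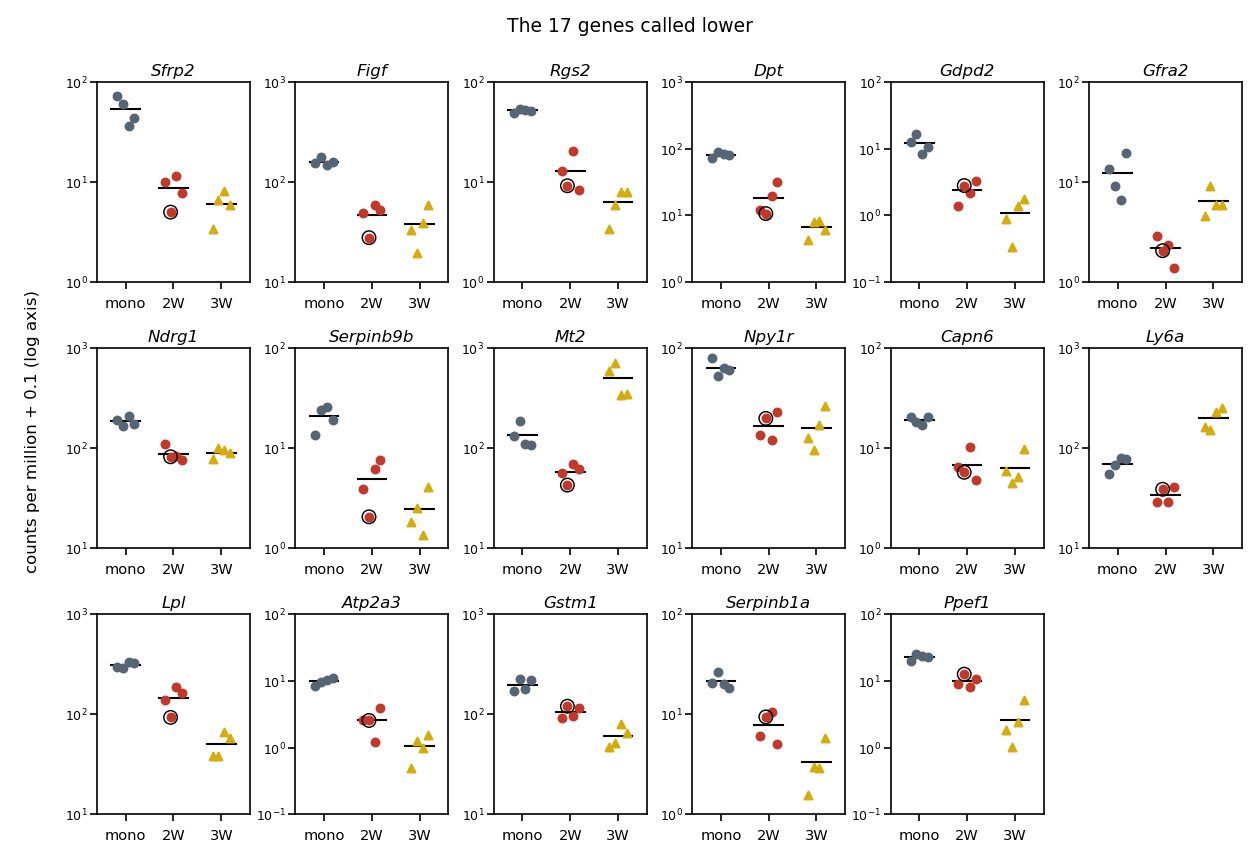
Levels (CPM + 0.1, log axis) of the 17 genes called lower, 1 point per library, with black bars for group means and a ring around 2W-PSC replicate 2. No 2W-PSC library (red) reaches the mono-PSCs (grey) in any panel. 3W-PSCs (gold triangles) lie below both for *Lpl* and *Ppef1* and above both for *Mt2* and *Ly6a*.

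Genes of the inflammatory CAF programme went in both directions. Of 19 tested, *Il4ra* and *Has2* were called higher and *Mt2* and *Dpt* lower, with a median of 0.24. EdgeR without 2W-PSC replicate 2 called the same genes. With all 8 libraries, edgeR with the replicate block and DESeq2 each called 3 higher and 2 lower, with *Il1r1* added to the higher genes. Limma voom called 4 higher and 3 lower, *Il1r1* among them. *Il4ra*, a receptor chain for IL-4 and IL-13, was at 6.14, 6.66, 8.52 and 16.7 CPM in mono-PSCs and 31.5, 50.3, 36.1 and 40.8 CPM in 2W-PSCs (log2 fold change 2.06 ± 0.33, adjusted p = 0.00834), and at 98.02, 81.8, 51.5 and 59.9 CPM in 3W-PSCs. The chemokines *Ccl2*, *Ccl7*, *Cxcl1* and *Cxcl12* had log2 fold changes of -0.01 ± 0.43, 0.26 ± 0.51, 0.16 ± 0.54 and 0.24 ± 0.20, none past the threshold. *Ccl2* was at 41.1, 19.4, 29.3 and 19.2 CPM in mono-PSCs and 21.3, 8.095, 44.7 and 32.8 CPM in 2W-PSCs, groups that overlap, against 1398, 1231, 1309 and 873 CPM in 3W-PSCs. The oncostatin M receptor *Osmr* was at 6.14, 2.35, 4.44 and 3.39 CPM and 8.73, 4.42, 10.03 and 8.03 CPM (log2 fold change 0.95 ± 0.41, adjusted p = 0.609). *Il6* did not pass the filter and was at no more than 0.847 CPM in mono-PSCs and 1.41, 0.736, 2.23 and 2.41 CPM in 2W-PSCs. *Ccl11* had 1 count in the 8 libraries. Other immune genes called higher were *Tnfrsf1b*, a TNF receptor, at 23.9, 18.02, 19.9 and 21.4 CPM and 50.8, 36.1, 61.1 and 48 CPM (adjusted p = 0.0143), and *Il1rn*, the IL-1 receptor antagonist, at 0, 0.196, 0 and 0 CPM and 21.7, 14.96, 10.2 and 29.4 CPM (adjusted p = 7.26e-05). *Tnfrsf1b* was called in 3 of the 8 fits that leave out 1 library, and *Il1rn* in all 8. Like the keratins described below, *Il1rn* was almost absent from mono-PSCs, with 1 count in all. The part of epithelial RNA in its level was not tested. The antigen-presenting CAF list had 3 genes tested and 0 called by edgeR, DESeq2 or limma voom, with 0 at an unadjusted p under 0.05.

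Interferon response genes had a median of 0.75 over 23 genes, with 22 of 23 above 0. The replicate block gave 4 calls in this list. *Usp18*, which removes ISG15 from proteins, was at 9.65, 16.6, 12.8 and 15.1 CPM in mono-PSCs and 38.6, 38.02, 32.3 and 48.6 CPM in 2W-PSCs (log2 fold change 1.55 ± 0.24, adjusted p = 0.0076). *Gbp3*, a guanylate-binding protein, was at 9.83, 12.1, 11.4 and 20.6 CPM and 26.5, 34.3, 33.6 and 50.1 CPM (log2 fold change 1.43 ± 0.29, adjusted p = 0.039). Both were called, and *Usp18* stood in all 8 fits that leave out 1 library and *Gbp3* in 2. Without 2W-PSC replicate 2, 9 of the 23 were called, with *Isg15*, *Ifit3*, *Ifi44*, *Oasl2*, *Iigp1* and *Ifi47* among those added. *Isg15* was at 122, 62.7, 85.9 and 107 CPM and 206, 64.8, 267 and 254 CPM, so replicate 2 lay at the bottom of the mono-culture range and the other 3 above it (adjusted p = 0.339, and 0.00197 without it). *Ifit2* went the other way, at -0.52 (unadjusted p = 0.032). Of the same family but outside the list, *Ifi204* (0.88 ± 0.18) and *Mnda* (1.05 ± 0.21) were called, each in 1 of the 8 fits that leave out 1 library. For *Mnda*, 64.3% of the 75-base windows in the last 500 bases of its transcripts also occur in another gene, *Ifi205* and *Mndal* among them.

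A subset of epithelial markers was present in 2W-PSCs at low levels and almost absent from mono-PSCs. *Krt18*, a keratin of simple epithelia, was at 0, 0.196, 0.177 and 0 CPM in mono-PSCs, 2 counts in all, and 33.9, 31.9, 30.7 and 53.1 CPM in 2W-PSCs. The ratio was 467 (129 to 3859), a 95% exact interval that covers counting error only. *Krt8*, its partner, was at 7.04, 2.45, 6.21 and 8.51 CPM in 2W-PSCs and 1 count in mono-PSCs. *Krt7* was at 0.351, 0.588, 0 and 0.121 CPM and 21.1, 20.1, 11.3 and 31.3 CPM, *Krt19* at 1.23, 0.196, 0.177 and 0.242 CPM and 24.4, 12.5, 15.1 and 17.7 CPM, and E-cadherin, *Cdh1*, at 0.878, 0.979, 0.355 and 0.121 CPM and 13.8, 15.4, 10.3 and 34.4 CPM. For each of these the lowest co-culture library was above the highest mono-culture library, and all 5 were called (adjusted p from 7.6e-06 for *Krt18* to 0.00215 for *Krt8*). Of the 30 epithelial markers, 6 passed the filter, and the sixth, *Lgals4*, was at 1.23, 0, 0 and 0 CPM and 2.39, 2.698, 5.25 and 3.53 CPM (adjusted p = 0.168). Several defining markers were at or near 0 in 2W-PSCs: *Cldn4*, *Cldn7*, *Ehf*, *Grhl2*, *Ovol1* and *Esrp1* had 0 counts in all 8 libraries, and *Epcam* had 1 count, in mono-PSCs. Some members had more counts in mono-PSCs than in 2W-PSCs, summed over 4 libraries: *Esrp2* (33 and 14), *Spint1* (14 and 13), *Cftr* (11 and 8), *Rab25* (7 and 5) and *St14* (3 and 0). In the same order, *Krt20* (0 and 46), *Muc1* (1 and 42) and *Tff1* (0 and 28) had more counts in 2W-PSCs. So did *Cldn3* (0 and 20) and *Elf3* (0 and 18), among other members below the filter. DESeq2 called *Krt20*, *Lgals4* and *Tff1* higher beside the 5 named above. The summed epithelial level was higher in all 4 co-culture libraries than in any mono-culture library, and its part in the other calls was not tested.

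Other genes called higher had next to no counts in mono-PSCs. *Wfdc2*, a secreted protease inhibitor of epithelia, had 1 count in mono-PSCs and 23.6, 28.5, 22.6 and 36.1 CPM in 2W-PSCs. *Cldn18*, a tight junction claudin, also had 1 count, with 22.1, 21.1, 17.7 and 35.5 CPM in 2W-PSCs. *Perp*, a desmosome protein, had 0 counts in mono-PSCs and 18.4, 6.38, 8.44 and 19.3 CPM in 2W-PSCs, at least 114.7-fold higher against the floor of 3 counts. Against the same floor, bounds ran from 18.4-fold (*Csn3*) to 51.4-fold (*Apoc2*) for the other genes with 0 counts in mono-PSCs, which were *Acan*, *Cldn6*, *Fermt1*, *Pcbd1*, *Tns4*, *U90926* and *Wnt7b* beside those 2. *Acan* encodes aggrecan, a cartilage proteoglycan, and *Fermt1* and *Tns4* encode focal adhesion proteins of epithelia. For *Apoc2*, 95% of its windows are shared with the readthrough gene *Gm44805*. With 1 to 6 counts over the 4 mono-PSC libraries came *Krt23*, *Cldn2*, *Lsr* (a tricellular junction protein), *Cadm1* (an adhesion molecule), *Bcl2l15*, *Cd24a* and *Kif26b*, at 1.96 to 13.0 CPM in 2W-PSCs. With the replicate block, *Cldn6* and *Csn3* were at 0.0661 and 0.0849. Of the 8 fits that leave out 1 library, *Cldn6* was called in 4 and *Csn3* in 1. As a group, these genes lay at or below 36.1 CPM in every co-culture library, and the level of every one in mono-PSCs was under 1 CPM.

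**Figure D4:**
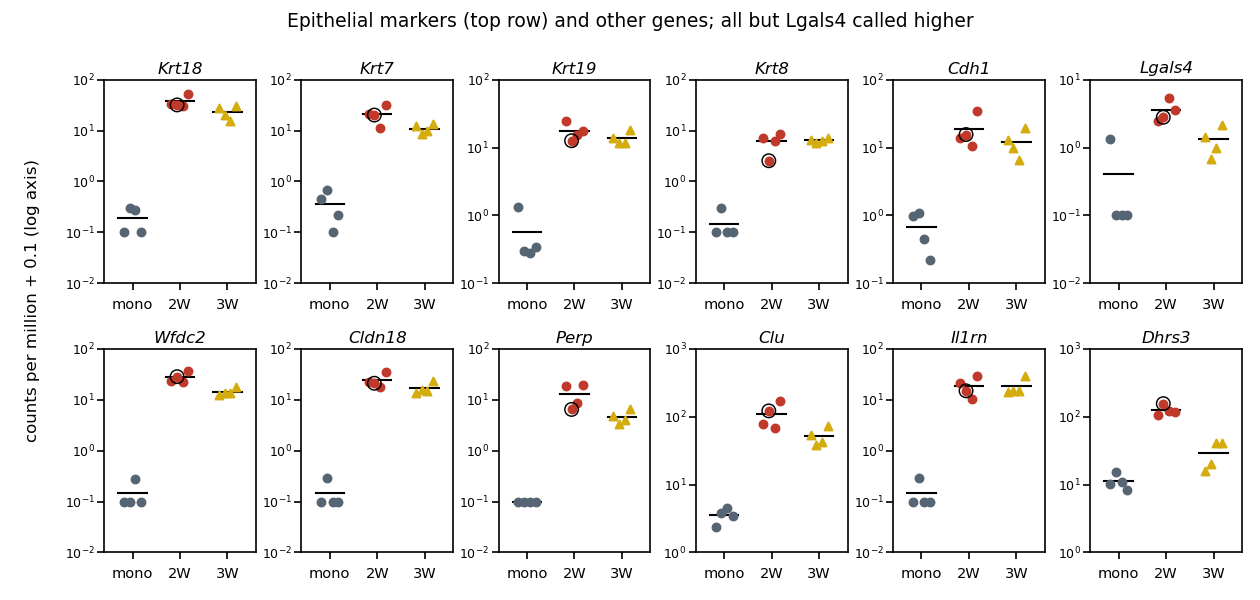
Levels (CPM + 0.1, log axis) of 6 epithelial markers (top row) and 6 other genes, 1 point per library, with black bars for group means and a ring around 2W-PSC replicate 2. Points at 0.1 are libraries with no count. All 2W-PSCs (red) lie above all mono-PSCs (grey), and 3W-PSCs (gold triangles) lie near or just below the 2W-PSCs for the keratins.

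*Clu*, which encodes the secreted chaperone clusterin, had the largest fold change among genes with a mean of at least 10 counts in mono-PSCs. It was at 2.28, 3.72, 4.44 and 3.39 CPM in mono-PSCs and 77.3, 122, 68.9 and 170.0 CPM in 2W-PSCs (log2 fold change 4.99 ± 0.35, adjusted p = 1.12e-05), and at 54.3, 38.5, 41.7 and 73.3 CPM in 3W-PSCs. The summed epithelial level in 2W-PSC replicates 1 to 4 was 113, 90.5, 86.5 and 160 CPM. Clusterin is made by fibroblasts and epithelia alike, and the part of epithelial RNA in its level was not tested.

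The remaining calls fell into small groups. Adhesion and cytoskeleton genes were *Tes*, *Fblim1*, *Ezr*, *Megf10*, *Rftn1* and *Cd97*, of which *Megf10*, an engulfment receptor, had the largest change: 6.14, 5.88, 4.08 and 7.86 CPM in mono-PSCs and 28.6, 53.7, 27.7 and 31.6 CPM in 2W-PSCs (log2 fold change 2.56 ± 0.31, adjusted p = 0.00107). The others had log2 fold changes from 1.14 (*Cd97*) to 1.49 (*Rftn1*). Lipid, steroid and transport genes were *Pla2g7* (2.58 ± 0.41), which encodes platelet-activating factor acetylhydrolase, *Ppap2b* (1.28 ± 0.22), *Cyp1b1* (1.28 ± 0.24), its electron donor *Por* (0.87 ± 0.18), and the pyrophosphate exporter *Ank* (0.89 ± 0.19), all as log2 fold changes ± SE. *Ermp1*, *Cpne8* and *Mmd* had 1.65 ± 0.25, 1.98 ± 0.33 and 1.21 ± 0.25. Of the unnamed transcripts *2200002D01Rik* had 2.06 ± 0.37, *2810474O19Rik* 0.94 ± 0.18 and *4930486L24Rik* 2.50 ± 0.51, the last with an adjusted p of 0.0376, 0.0529 with the replicate block and 97.9% of its windows shared with *Gm49392*. The pseudogenes *Rps13-ps1* and *Gm11942* were also called, and 81.5% and 14.8% of their windows occur in other genes, so their counts are uncertain. Other called genes with over 10% of their exon bases under exons of the opposite strand were *Lsr* (44.7%), *Cd97* (23.8%), *2200002D01Rik* (23.1%), *Dusp5* (22.1%), *Gdpd2* (17.3%), *Sfrp2* (16.1%), *Bdnf* (14.4%), *Lef1* (13.7%) and *Pla2g7*.

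Lists of other processes held no call in the edgeR fit of the 8 libraries. Cell cycle (32 genes), cholesterol synthesis (25), unfolded protein response (28), immediate early (20), YAP/TAZ target (21), ribosomal protein (78), mitochondrially encoded (7), Notch (10), ephrin (12), semaphorin (17) and hedgehog (6) genes had 0 calls each. Across these 11 lists DESeq2 called 1 cell cycle gene and 1 semaphorin or plexin gene higher, and 1 hedgehog and 1 semaphorin or plexin gene lower. Limma voom called those numbers too, and beside them 1 YAP/TAZ target higher and 1 gene lower in each of the YAP/TAZ, cholesterol, immediate early and unfolded protein lists. EdgeR without 2W-PSC replicate 2 called 1 cell cycle gene and 1 semaphorin or plexin gene higher, and 1 gene lower in each of the hedgehog, YAP/TAZ, immediate early and semaphorin lists, and the replicate block gave 1 semaphorin or plexin gene in each direction. At an unadjusted p under 0.05, the edgeR fit had 1 cell cycle gene higher, 1 gene in each direction among YAP/TAZ targets, immediate early genes and semaphorins, 1 hedgehog and 1 unfolded protein gene lower, 1 Notch and 2 ephrin genes higher, and 0 mitochondrially encoded genes. At the same level 5 cholesterol genes were lower and 1 higher, with a median of -0.22 for the list, and the squalene synthase *Fdft1* had -0.67 ± 0.19 (adjusted p = 0.159). Ribosomal protein genes had 0 of 78 at that level and a median of -0.02. *Ccnd1*, cyclin D1, was at 294, 221, 249 and 260.4 CPM in mono-PSCs and 426, 317, 454 and 411 CPM in 2W-PSCs, without overlap, but at an adjusted p of 0.189, and 0.0286 without replicate 2. It was the cell cycle gene that DESeq2 and limma voom each called higher. In a simulation on these library sizes and spreads, 88% of genes changed 4-fold and 33% of genes changed 2-fold were called, so a missing call does not show equal levels. Genes at the lowest levels were not among those changed.

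**Figure D5:**
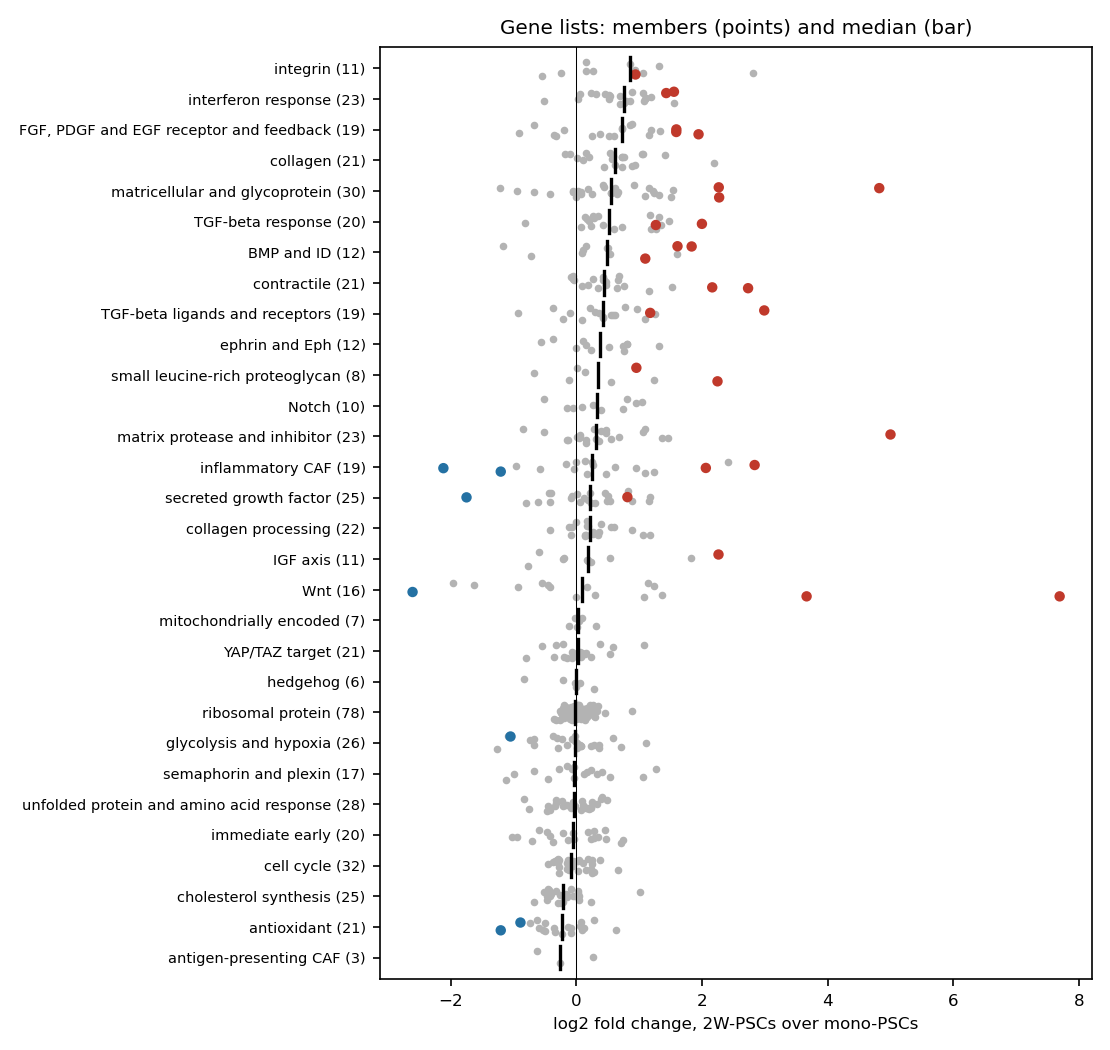
Log2 fold changes, 2W-PSCs over mono-PSCs, of the genes of 30 lists, with the number tested in brackets and a black bar at each list's median. Called genes are red (higher) or blue (lower). Among these 30 lists, which leave out the cell type markers, the interferon, integrin and receptor feedback lists have the highest medians, from 0.72 to 0.85, and ribosomal protein genes have a median of -0.02. Without 2W-PSC replicate 2 the integrin median was 0.49, below those of the TGFβ response (0.61) and collagen (0.55) lists. The interferon and receptor feedback medians were then 0.79 and 0.87. The fold change of *Wnt7b*, the point farthest right, rests on 0 counts in mono-PSCs and depends on the prior count.

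Without 2W-PSC replicate 2, 70 further genes were called higher and 32 lower among those in the main test, and 20 more calls came from genes tested in that fit alone. *Klf4*, a factor of quiescence and differentiation, was at 423, 446, 443 and 492 CPM in mono-PSCs and 243, 510.5, 170.4 and 163 CPM in 2W-PSCs (adjusted p = 0.67 with replicate 2 and 0.00186 without it, at a log2 fold change of -1.23). *Crabp1*, which binds retinoic acid, was at 178, 267, 314 and 237 CPM and 93.9, 259, 79.9 and 88.5 CPM (adjusted p = 0.487 and 0.000606). *Sema3c*, a guidance ligand, was at 101, 125, 126 and 116 CPM and 46.6, 89.3, 44.9 and 52.5 CPM (adjusted p = 0.0915 and 0.000606). In *Nid1*, a basement membrane linker, replicate 2 was instead the highest library: 97.1, 73.05, 80.1 and 117 CPM in mono-PSCs and 202, 489, 148 and 214 CPM in 2W-PSCs, at 0.0561 and 0.00963. *Unc5b*, a netrin receptor, was at 158, 92.2, 108 and 160.2 CPM and 387, 131, 378 and 369.7 CPM, at 0.0998 and 0.000445. These genes were chosen from the fit without 2W-PSC replicate 2 after its values were seen. With all 8 libraries, edgeR with the replicate block called *Sema3c*. DESeq2 and limma voom each called *Sema3c* and *Nid1*, and limma voom also called *Klf4*.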

How the data were processed

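PSC RNA was sequenced with QuantSeq 3′ FWD in 75-base single reads. The deposited table holds whole read counts per gene, which the authors made with STAR, featureCounts and GRCm38 per the labels (FastQC and DESeq2 are also listed, and versions, strand setting and molecular identifiers are not given in the sources used here). The paper calls such values normalised, but the deposited counts are unscaled. Groups came from GEO's labels. Counts were fitted with the quasi-likelihood test of edgeR 4.0.16 in R 4.3.3 (TMM, filterByExpr, 4 against 4 libraries, prior count 0.125, Benjamini-Hochberg adjustment over 11199 genes, threshold 0.05). CPM used TMM over all 12 libraries. On simulated data of 11020 genes, 88% of 4-fold and 33% of 2-fold changes were called, with 3.2% false calls. On the same simulated data, false calls were 12.8% with DESeq2 and 5.17% with limma voom. The changed genes were drawn above a minimum mean level, so these shares do not cover genes below it.

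DESeq2 1.42.0, limma 3.58.1, other filters and scalings, a replicate block and each library left out were alternatives. Replicate numbers are shared by the cultures in the labels, and same-numbered libraries deviated together (correlations of deviations from group means 0.371, 0.296, 0.237 and 0.109, against -0.274 to 0.225 between different numbers, where mono-PSC replicate 4 correlated better with 2W-PSC replicate 2, at 0.183, than with its own number). The planned fit, which gives the values printed, has no block, and block values stand where the block ended a call. Not every call that the block added is named. Text genes were the 20 largest changes in each direction among calls with at least 10 counts per library in the higher culture, called list genes, the best member of a list with none, genes the study names and top markers. All other calls, and those from the fit without 2W-PSC replicate 2, were added after values were seen. The comparison and gene lists were chosen with earlier results of these data known. Intervals (95%, exact) and the floor of 3 counts cover counting error only. Some items are not reported here.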

Additional observations from a re-analysis of the deposited data

Results flagged for a closer look

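In 265 groups of 4 libraries (named genes with a mean of at least 10 counts, and library totals), 21 had 1 library far from the other 3 by Dixon's criterion, and chance gives about 1 in 20. Of these, 9 were 2W-PSC replicate 2.

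In 2W-PSC replicate 2, *Cygb* (520.6 CPM, others 168.9 to 204.9), *Tnnt2* (65.74, others 22.64 to 26.33), *Megf10* (53.72, others 27.7 to 31.63), *Efnb1* (54.7, others 17.35 to 21.51), *Irx3* (13.25, others 5.78 to 6.687), *Kif26b* (13.0, others 3.211 to 4.14) and *Csf1r* (6.869, others 0.1408 to 1.274) were high. *Mgp* (17.42 CPM, others 79.54 to 80.76) and *Cd97* (25.76, others 46.74 to 49.68) were low there.

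Among the other 2W-PSCs, *Krt18* was high in replicate 4 (53.14 CPM, others 30.73 to 33.93), as was *Rgs17* (21.51, others 18.31 to 18.72), and *Ifi204* was low in replicate 1 (58.42, others 67.03 to 68.72).

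In mono-PSC replicate 2, *Cygb* (81.08 CPM, others 40.3 to 42.35), *Cpne8* (15.28, others 8.59 to 8.699) and *H2-DMb1* (8.03, others 3.16 to 3.267) were high, and *Camk2n1* (17.04, others 29.4 to 31.77), *Vcan* (7.05, others 14.75 to 15.8) and *Leprel2* (3.917, others 7.197 to 7.634) were low. *Tnnt2* was low in mono-PSC replicate 3 (1.065 CPM, others 6.654 to 7.373) and *Onecut2* was high in replicate 4 (3.751, others 2.106 to 2.308). The total of mono-PSC replicate 4 was 8093368 counts, against 5286963 to 5674558 in the others.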

How the results depend on the processing

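The 111 calls (94 higher, 17 lower, 102 past 2-fold) became 177 (149, 28, 167) with no filter, 57 (45, 12, 51) with at least 10 counts in every library, 275 (229, 46, 234) with DESeq2, 286 (208, 78, 204) with limma voom and 262 (220, 42, 215) with all 12 libraries in one fit; DESeq2 size factors, robust edgeR, the fit without the most abundant gene and a prior count of 2 gave 109 to 114. Leaving out 1 library gave 61 to 233 calls, 55 to 183 higher, 6 to 50 lower and 61 to 187 past 2-fold: 233 without 2W-PSC replicate 2, 64 and 61 without 2W-PSC replicates 1 and 4, and 63 and 61 without mono-PSC replicates 3 and 4. The replicate block gave 135 calls (113 higher, 22 lower, 118 past 2-fold) and held 104 of the 111; it ended the calls of *Fap*, *Cldn6*, *Csn3*, *Irx3*, *Foxc2*, *Atp2a3* and *4930486L24Rik* and of no other called gene. With the block and without 2W-PSC replicate 2 there were 369 calls (246, 123, 207). Of the 111, 26 were called under all 19 alternatives, 49 in all 8 leave-one-out fits and 45 in at most 4 of them, and 0 changed sign. The stricter filter tests fewer genes, and the cause of the other shifts was not tested.

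Signs turned only for named genes that were not called. *Col4a5* was at -0.017 with no filter, -0.047 (voom), -0.008 (12 libraries), -0.0557 (without 2W-PSC replicate 2, with the block) and -0.1365 to 0.1088 over the fits that leave out 1 library. *Col4a6* was at -0.0233 (voom) and -0.0492 to 0.6596 over those fits, *Cxcl1* at -0.0596 (block) and -0.3364 to 0.4878, *Ccl7* at -0.0592 to 0.6374 and *mt-Cytb* at -0.0332 to 0.6555. *Ccl2* was at 0.2005 (voom), 0.1502 (without 2W-PSC replicate 2, with the block) and -0.3788 to 0.2735.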
